A study of Mus musculus with 20 samples.

Results

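A set of 43 genes of the endoplasmic reticulum (ER) was described in mouse liver, covering protein folding, the response to ER stress and the first steps of secretion. The genes were taken by symbol from the deposited RNA-seq tables for males and females and joined by Ensembl identifier, which gave 43 of the 18149 genes listed in both tables. RNA-seq had been run on whole liver from mice of 11 to 14 weeks, with 3 WT and 3 Midn-T mice in each of the sexes. Midn encodes midnolin, an adaptor that hands nuclear proteins to the proteasome. Samples titled WT carry the genotype entry Midn XTR, an invertible gene-trap allele read through normally, and Midn-T samples carry Midn TR, the same allele after inversion by Cre. Cre was driven by the Albumin promoter, so the trap acts in hepatocytes and the other cells of the liver keep Midn. Whether the WT mice also carried Albumin-Cre is not given in the sources used here.

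Each table was used for a single measurement, the authors' mean normalized count over the 6 libraries of that sex. This mean pools WT and Midn-T mice. No value of a single mouse was used, so a level has no error between mice, and a difference between the genotypes cannot be read from it. For the same reason the level of Midn does not check the genotype labels here. The authors' own fold changes and p-values were not used here. All comparisons of the sexes are therefore descriptions without a test, and their spread between mice is unknown. In bulk tissue, fewer cells of a type and less RNA per cell cannot be told apart.

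Secreted proteins enter the ER through the Sec61 translocon, fold there with the help of chaperones and disulfide isomerases, and leave in COPII-coated vesicles, some of them bound to cargo receptors. Proteins that fail to fold are sent back to the cytosol for degradation (ER-associated degradation, ERAD). The load of unfolded protein is sensed by IRE1, PERK and ATF6, which together drive the unfolded protein response (UPR). Hepatocytes secrete most plasma proteins and hold an extensive rough ER.

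The sequence element best known for this response lies in the promoters of some of these genes. The ER stress element (ERSE) reads CCAAT, then 9 bases of any kind, then CCACG, and is bound by ATF6 together with the factor NF-Y. RefSeq promoter windows (build GRCm38.p6, from 250 bases before to 50 bases after the start of transcription) were matched to 36 of the 43 genes. Atf6, Derl1, Hyou1, Lman1, Manf, Sec61a1 and Ssr2 had no window. An exact ERSE on either strand was found in 9 of the 36 genes, or 25.0%, against 37 of all 27025 genes with a window, or 0.137%. The ERSE was searched as an element known for ER stress, and the members were chosen as genes of the ER and its stress response. This contrast is therefore a description and not an independent finding. ERSE-II, which reads ATTGG, 1 base of any kind and CCACG, was found for Herpud1 and Dnajb11, that is in 5.56% of the members and 0.0444% of all genes. The unfolded protein response element TGACGTGG was found for Sec24d alone among the members, or 2.78%, and in 0.714% of all genes. With any of the 3 elements counted, 12 members (33.3%) and 239 genes (0.884%) held a match.

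Only 12 of the 36 members with a window (33.3%) held any of the ERSE, ERSE-II and UPR elements, so a match is not shared by the whole set. The 12 matches that lie wholly before the start of transcription are shown. Each is written 5′ to 3′ on the strand of its gene with the 6 bases on either side, and capitals mark the fixed boxes of the element. Where CGTGG comes first and ATTGG last, the ERSE lies on the opposite strand. The match of Dnajb11 lies after the start and is not shown.
Hspa5, ERSE (chr2:34772019-34772049, plus strand): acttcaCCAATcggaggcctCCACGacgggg
Hsp90b1, distal ERSE (chr10:86705632-86705662, minus strand): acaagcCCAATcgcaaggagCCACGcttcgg
Hsp90b1, proximal ERSE (chr10:86705527-86705557, minus strand): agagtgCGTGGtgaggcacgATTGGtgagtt
Calr, ERSE (chr8:84847069-84847099, minus strand): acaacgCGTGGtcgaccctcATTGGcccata
Canx, ERSE (chr11:50325794-50325824, minus strand): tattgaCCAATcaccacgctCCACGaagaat
Pdia6, ERSE (chr12:17266485-17266515, plus strand): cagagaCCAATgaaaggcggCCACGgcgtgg
Dnajc3, ERSE (chr14:118937821-118937851, plus strand): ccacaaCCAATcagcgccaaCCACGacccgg
Creld2, ERSE (chr15:88819514-88819544, plus strand): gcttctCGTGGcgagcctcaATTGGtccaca
Derl3, ERSE (chr10:75893236-75893266, plus strand): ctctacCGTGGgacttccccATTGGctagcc
Syvn1, ERSE (chr19:6046526-6046556, plus strand): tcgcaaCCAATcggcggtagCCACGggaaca
Herpud1, ERSE-II (chr8:94386371-94386393, plus strand): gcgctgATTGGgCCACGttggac
Sec24d, unfolded protein response element (chr3:123267464-123267483, plus strand): ggcgccTGACGTGGcactag

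The first base of the element, counted back from the start of transcription, was base -44 in Syvn1 and base -65 in Hspa5, the gene of the ER chaperone BiP. The distal element of Hsp90b1 began farthest away, at base -212. Hsp90b1 was the only member with 2 ERSE matches, 1 in each orientation. The element lay on the strand of the gene in Hspa5, Canx, Pdia6, Dnajc3 and Syvn1, and on the opposite strand in Calr, Creld2 and Derl3. The element TGATGCAA, a site type of ATF4 with C/EBP factors, was found for Chac1 and Herpud1 (5.56% of the members, 1.03% of all genes). The TATA box TATAAA was found for Calr and Trib3 (5.56% against 15.7%). In Calr this match began at base 34 after the start, and in Trib3 at base -166. A match is a run of letters in a window and does not show binding, and the lack of one says only that these letters are not in this window.

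**Figure D1:**
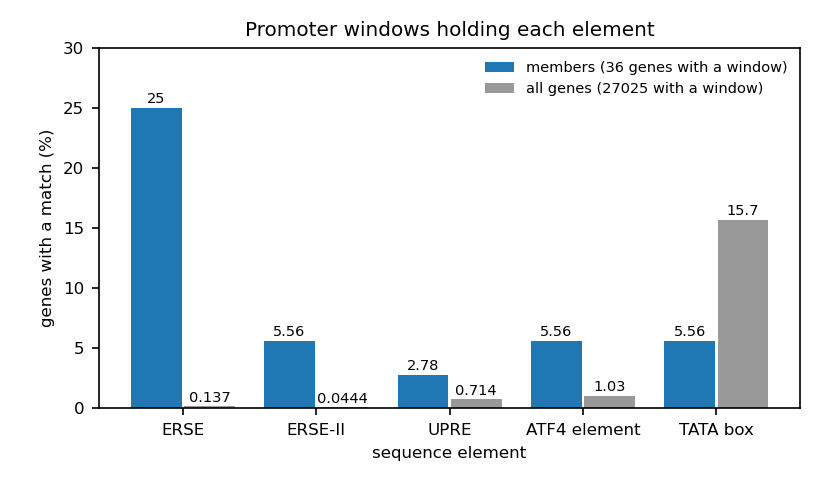
Share of genes (y axis, percent) whose 300-base promoter window holds each sequence element (x axis), for the 36 members with a window (blue) and all 27025 genes with one (grey). ERSE was found in 25.0% of the members and 0.137% of all genes, and the TATA box in 5.56% and 15.7%. The ERSE and the members were both chosen for their known part in the ER, so their contrast is not an independent finding.

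Levels of different genes were compared per kilobase of annotated exon (GENCODE M39, GRCm39). Most of the 43 genes were abundant. In males, 25 of them lay above the 90th percentile of the 16508 genes with a mean of at least 10, and 38 lay above the median. In females, 24 of the 43 lay above the 90th percentile of 16916 genes, and 39 above the median. The median member had a per-kilobase level of 623.8 in males (percentile 92.3) and 534.5 in females (percentile 91.2). Together the members held 0.853% of the summed mean counts in males and 0.818% in females. The highest member was 371-fold above the lowest in males and 474-fold in females. Without values for single mice, neighbours in the order of levels cannot be separated by their spread, and only large gaps in it are described.

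Among the folding genes, the disulfide isomerases, which form and rearrange disulfide bonds, had the highest median. P4hb, the archetypal isomerase and a subunit of prolyl hydroxylase and of the microsomal triglyceride transfer complex, was the most abundant member in both sexes, at 8240 normalized counts per kilobase in males and 8557 in females. Pdia3, which acts with the lectin chaperones, stood at 2283 per kilobase in males and 2337 in females. Pdia4 had per-kilobase levels of 873 and 1087, and Pdia6 of 813 and 830. P4hb thus stood well apart from the rest of its group in both tables.

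Calr (calreticulin), the soluble lectin chaperone of newly made glycoproteins, had 4719 per kilobase in males and 5252 in females. Its membrane-bound partner Canx (calnexin) stood at 2039 and 2104. Hspa5 had 3770 per kilobase in males and 2917 in females. Hsp90b1 (GRP94), the Hsp90 of the ER, had 3634 and 4597, so that the pair was close in males and Hsp90b1 was the higher in females. The co-chaperones and exchange factors were lower. Dnajc3 (P58IPK) stood at 1236 per kilobase in males and 1256 in females, Hyou1 (GRP170) at 995 and 917, and Dnajb11 (ERdj3) at 659 and 597. Dnajb9 (ERdj4), an Hspa5 cofactor that also holds IRE1 inactive, had 624 in males and 331 in females. Sdf2l1 had 508 and 523 per kilobase. Creld2 had 448 and 240, and Manf, a secreted stress protein, 151 and 97.9. The length used for Manf was 12.2 kb, against 6.04 kb for its longest transcript, and its annotated exons overlap those of Rbm15b by 3962 bases on the same strand, so its level is uncertain.

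Of the ERAD genes, Herpud1, a UPR-induced adaptor of the ubiquitin ligase HRD1, stood far above the rest, with 4344 per kilobase in males and 3103 in females. Edem1 and Edem2 act on the mannose residues that mark glycoproteins for disposal. Edem1 stood at 825 and 930 per kilobase and Edem2 at 317 and 243. Sel1l, the partner of HRD1, had 785 and 676, and Syvn1, which encodes HRD1 itself, 582 and 312. Selenos, a selenoprotein of the same complex, had 811 and 649. The derlins, membrane proteins of the exit channel, differed widely among themselves. Derl1 had 557 per kilobase in males and 534 in females and Derl2 317 and 329, but Derl3 had 29.5 and 28.5, near the 34th percentile of all genes in males (34.4) and the 33rd in females (33.2).

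**Figure D2:**
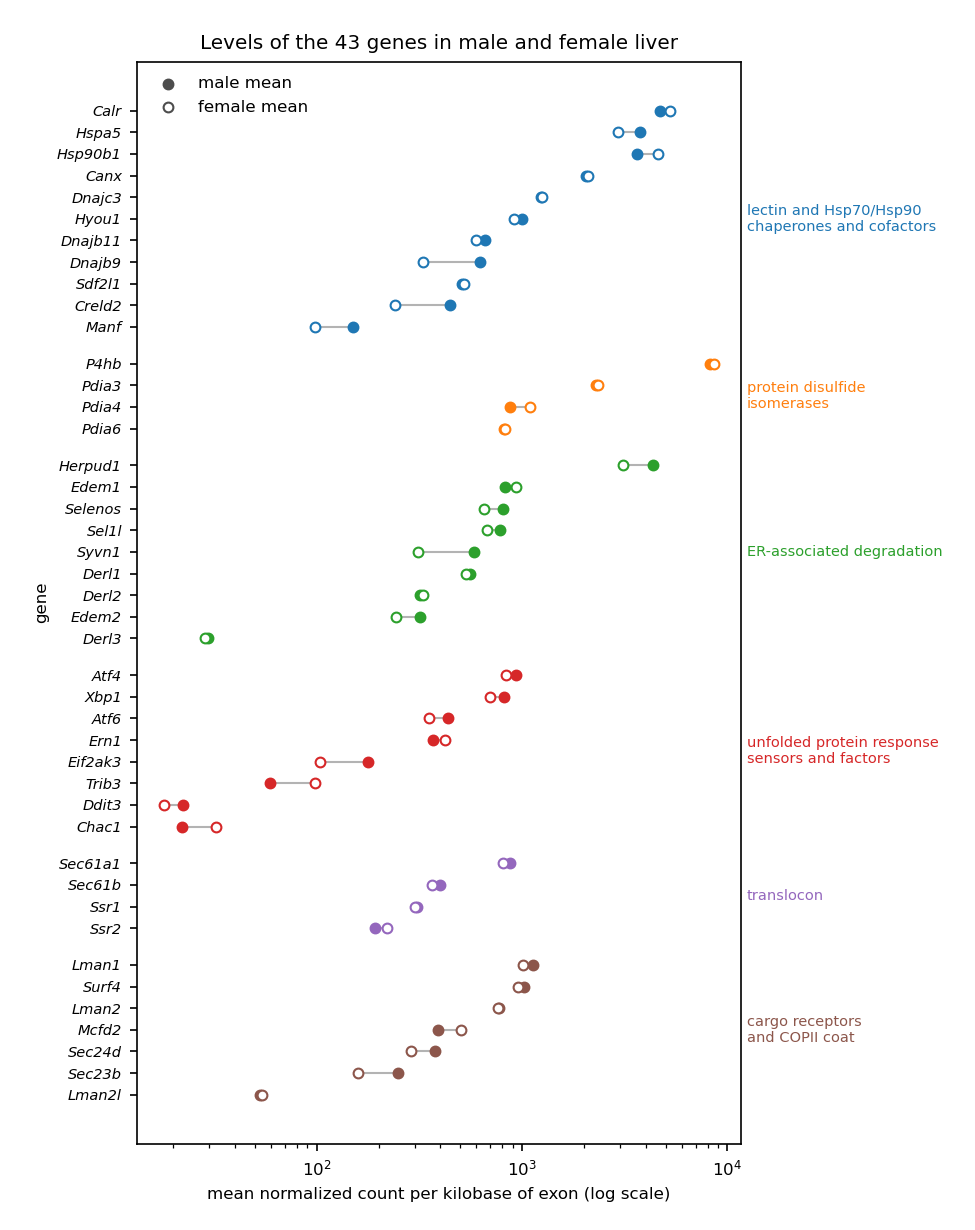
Per-kilobase level (x axis, mean normalized count per kilobase of exon, log scale) of each of the 43 genes (y axis), grouped by role. Filled points are the male mean and open points the female mean, each over 6 libraries of both genotypes. P4hb is highest in both sexes, and Chac1, Ddit3 and Derl3 are lowest.

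The UPR genes ran from common transducers down to targets with low means. Atf4, the translationally controlled factor of the PERK arm, had 931 per kilobase in males and 833 in females. Xbp1, whose mRNA is spliced by IRE1, had 814 and 700. Of the sensors, Atf6 stood at 438 and 352, Ern1 (IRE1) at 368 and 421, and Eif2ak3 (PERK) at 179 and 104. The targets that mark strong or lasting stress were at the foot of the list. Trib3, a pseudokinase, had 59.3 per kilobase in males and 98.0 in females. Ddit3 (CHOP), a pro-apoptotic factor, had 22.3 and 18.0, and Chac1, which degrades glutathione, 22.2 and 32.3. In males Chac1 and Ddit3 were level with each other, both at percentile 29.0, and in females Ddit3 lay at percentile 24.8 and Chac1 at 35.9. A second Ensembl identifier with the symbol Ddit3 is listed at 0 in the male table and overlaps the first by 105 bases. It was not counted as a member.

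The translocon and transport genes ran from among the 10 highest in males, with Lman1 and Surf4, down to rank 40 for Lman2l. Sec61a1, the channel itself, had 871 per kilobase in males and 805 in females, and its small subunit gene Sec61b 398 and 365. Of the translocon-associated TRAP complex, Ssr1 stood at 309 and 301, and Ssr2 at 192 and 219. Lman1 (ERGIC-53) carries clotting factors V and VIII together with Mcfd2. Lman1 had 1127 per kilobase in males and 1006 in females, against 391 and 505 for Mcfd2. Surf4, a cargo receptor for lipoproteins among others, had 1024 and 951. Lman2 (VIP36) had 774 and 761, and its relative Lman2l only 53.0 and 54.3. The inner COPII coat genes Sec24d and Sec23b stood at 379 and 249 in males and at 287 and 160 in females.

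The same genes were then compared between the sexes. The tables had been normalized separately, so each female over male ratio of the mean counts was centred on the median ratio of the 16283 genes with a mean of at least 10 in both, a shift of 0.05 on the log2 scale. Of the 43 members, 6 were more than 1.5-fold lower in females (14.0%), against 4.31% of all genes. A single member, or 2.33%, was more than 1.5-fold higher in females, against 7.31% of all genes. The median log2 ratio of the members was -0.16, with 32 of 43 below 0. Centred instead on the median of 12 hepatocyte marker genes, a choice made after the values were seen, the median of the members was 0.04 with 17 of 43 below 0, while the median of all genes was 0.20 with 22.5% below 0. A change of centring shifts every gene alike, so it alters the sign of a ratio near 0 but not the distance of the members from the other genes.

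The 6 members lower in females were Dnajb9, Syvn1, Creld2, Eif2ak3, Sec23b and Manf. Dnajb9 (chromosome 12, 44252341 to 44257171, GRCm39) had a mean normalized count of 2599 in males and 1380 in females, or 1.95-fold higher in males. Syvn1 (chromosome 19, 6096606 to 6103747) had 2832 in males and 1517 in females, a 1.93-fold difference. Creld2 (chromosome 15, 88703795 to 88710890) had 982 and 526, also 1.93-fold apart. These 3 stood closest to a doubling, and only about 1.6% of all genes had a lower ratio (percentiles 1.58, 1.66 and 1.66). None of the members passed 2-fold. Syvn1 and Creld2 are among the 9 genes whose ERSE is shown above. Dnajb9, Eif2ak3 and Sec23b held no match in their windows, and Manf had no window.

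Eif2ak3 (chromosome 6, 70821461 to 70882235) had a mean count of 1134 in males and 657 in females, 1.79-fold higher in males. Sec23b (chromosome 2, 144391970 to 144432684), a GTPase-activating subunit of the COPII coat, had 1706 and 1096, a 1.61-fold difference. Manf (chromosome 9, 106715511 to 106769727) had 1832 and 1190, or 1.59-fold, with the overlap named above. Dnajb9, Syvn1, Creld2 and Eif2ak3 stayed past 1.5-fold under every scaling and minimum mean tried, whereas Sec23b and Manf did not when centred on the hepatocyte markers (log2 ratios of -0.49 and -0.47).

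Trib3 (chromosome 2, 152179337 to 152191958) was the member above 1.5-fold in females. Its mean count was 201 in males and 332 in females, a 1.59-fold difference, and it stayed past 1.5-fold under every scaling and minimum tried. Chac1 followed, with 57.6 in males and 83.9 in females, or 1.41-fold. Both are known targets of ATF4. Ddit3, another known target, was lower in females (124 in males and 101 in females, 1.28-fold), and Atf4 mRNA was 1.16-fold lower. A part of ATF4 in these ratios was not tested. Trib3, Chac1 and Ddit3 rest on fewer reads than most members. In males about 356 reads over the 6 libraries stood behind Chac1, which gives a counting error of 5.46%, and about 1243 behind Trib3, which gives 2.92%. Derl3 and Ddit3 were the other members above 2%. Counting error does not include the variation between mice.

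**Figure D3:**
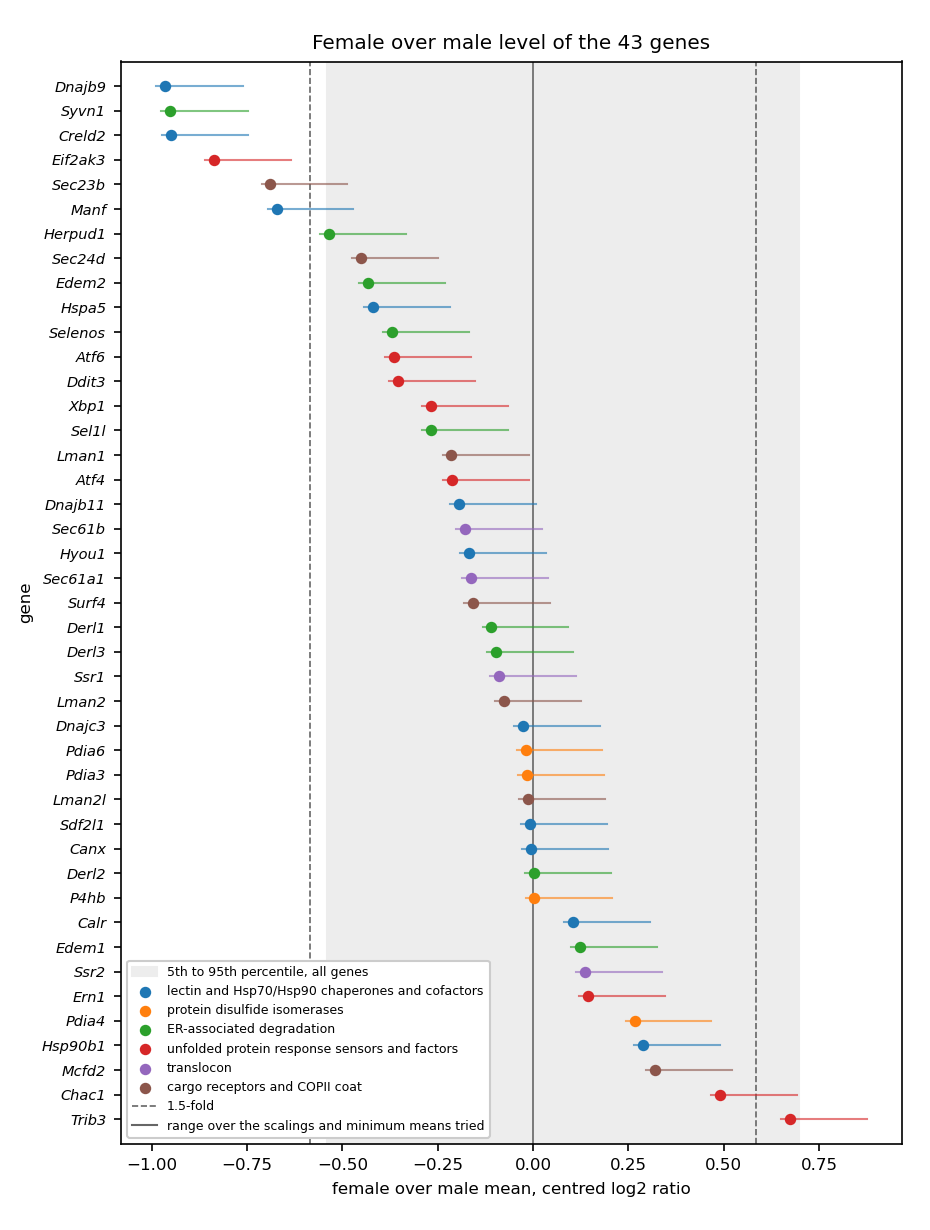
Centred log2 ratio of the female to the male mean (x axis) for each of the 43 genes (y axis), coloured by role. Points are the main scaling and bars the range over the scalings and minimum means tried, the grey band spans the 5th to 95th percentile of all genes (-0.54 to 0.70), and dashed lines mark 1.5-fold. Dnajb9, Syvn1, Creld2 and Eif2ak3 stay left of the 1.5-fold line, and Trib3 stays right of it.

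The ratios were then described by role, with no test between roles. Among the chaperones and cofactors, 3 of 11 were past 1.5-fold (Dnajb9, Creld2 and Manf), with a median log2 ratio of -0.17. Hspa5 was 1.34-fold higher in males, whereas Hsp90b1 was 1.22-fold higher in females, so that the major chaperones of the ER lumen lay on opposite sides of 0 under every scaling. Canx, Dnajc3 and Sdf2l1 had log2 ratios of -0.01, -0.03 and -0.01, whose signs depended on the centring. Of the 4 disulfide isomerases, none was past 1.5-fold. P4hb, Pdia3 and Pdia6 had log2 ratios of 0.00, -0.02 and -0.02, and Pdia4 was higher in females, with 0.27. The signs of P4hb, Pdia3 and Pdia6 depended on the centring.

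In the ERAD group, 7 of 9 ratios lay below 0, with a median of -0.27. Herpud1 came just short of the threshold, at 1.45-fold higher in males, and Edem2 (1.35-fold), Selenos (1.29-fold) and Sel1l (log2 ratio -0.27) were also higher in males under every scaling. Syvn1 and Sel1l encode the core of 1 ligase complex, and both were lower in females, by different amounts. Derl2 was level between the sexes (log2 ratio 0.00), and Edem1 was 1.09-fold higher in females. Among the sensors, Eif2ak3 and Atf6 were lower in females (1.79-fold and 1.29-fold) and Ern1 was 1.11-fold higher. Xbp1 was also lower in females, with a log2 ratio of -0.27.

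Translocon genes differed little, with log2 ratios between -0.18 and 0.14. In transport, both COPII genes were lower in females, as Sec24d was 1.37-fold higher in males beside the 1.61-fold of Sec23b. The partners Lman1 and Mcfd2 went apart, with Lman1 1.16-fold higher in males and Mcfd2 higher in females with a log2 ratio of 0.32, in the same directions under every scaling. In all, 17 members were below 0 and 9 above 0 under every scaling and minimum tried. Centring on the hepatocyte markers shifted the ratios up the most, and there the same 17 of the 43 members lay below 0, against 22.5% of all genes. Using no minimum shifted them down the most, and there 34 of the 43 members lay below 0, against 50% of all genes. The shares of all genes that kept their sign in every setting were not counted. The order of the per-kilobase levels was nevertheless close in the sexes (Spearman rho 0.98 and Pearson r of the log2 levels 0.98 across the 43 genes, which are not independent replicates). The largest moves in rank among the 43 were those of Creld2, from 26 in males to 34 in females, and Syvn1, from 23 to 30.

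The ratios were also set beside the promoter elements. Members with an ERSE had a median log2 ratio of -0.03, against -0.16 for the members without one, and over all genes the median was 0.11 for the 20 measured genes with an ERSE and -0.02 for the rest. With any of the ERSE, ERSE-II and UPR elements counted, the members' order was the other way round, at -0.15 with an element and -0.08 without. Over all genes with a window, the median was -0.03 for the 137 measured genes with any of these elements and -0.02 for the 10633 without, and 6.57% against 4.06% were more than 1.5-fold lower in females. The groups over all genes include the members, so they are not a separate background.

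Other genes of the same processes were taken from 5 lists of 88 genes in all, of which 86 had a ratio. Their median log2 ratio was -0.14, close to that of the members, and 74 of the 86 lay below 0. More than 1.5-fold lower in females were 4 of them (4.65%, against 4.31% of all genes) and none was higher by that much. On the per-kilobase scale the highest genes of 4 of the lists were Fkbp2 for folding (1225 in males and 1185 in females), Creb3l3 for the UPR (2007 and 1847), Ssr3 for the translocon (1769 and 1784) and Mia2 for transport (1359 and 1286). The folding and transport lists had medians of -0.13 and -0.17.

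Markers of the cell types in the tissue moved with sex as well, and their part in the ratios was not tested. The 12 hepatocyte markers had a median percentile of 99.9 in both sexes, Alb (albumin) being the highest, and a median log2 ratio of -0.20 with 9 of 12 below 0. Of the 7 stellate cell markers all lay above 0 (median 0.36), as did 7 of 8 sinusoidal endothelial markers (median 0.16) and 5 of 6 cholangiocyte markers (median 0.53). Kupffer cell markers had a median of -0.04. The summed mean of the hepatocyte list was 3.56e+06 in males and 4.05e+06 in females, led by Alb, and that of the stellate list was 13058 and 17040. Plasma cells, whose secretory ER expresses many of the 43 genes strongly, were represented by 5 markers with a ratio, with a median of -0.37. The summed mean was 5495 in males, over 7 markers, and 7216 in females, over the 5 markers listed there. Most of each sum was Sdc1, a gene that hepatocytes also express. The acinar list of the pancreas summed to 14.1 in males, over 6 genes above 0, and to 12.5 in females, where only 1 of its genes is listed.

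**Figure D4:**
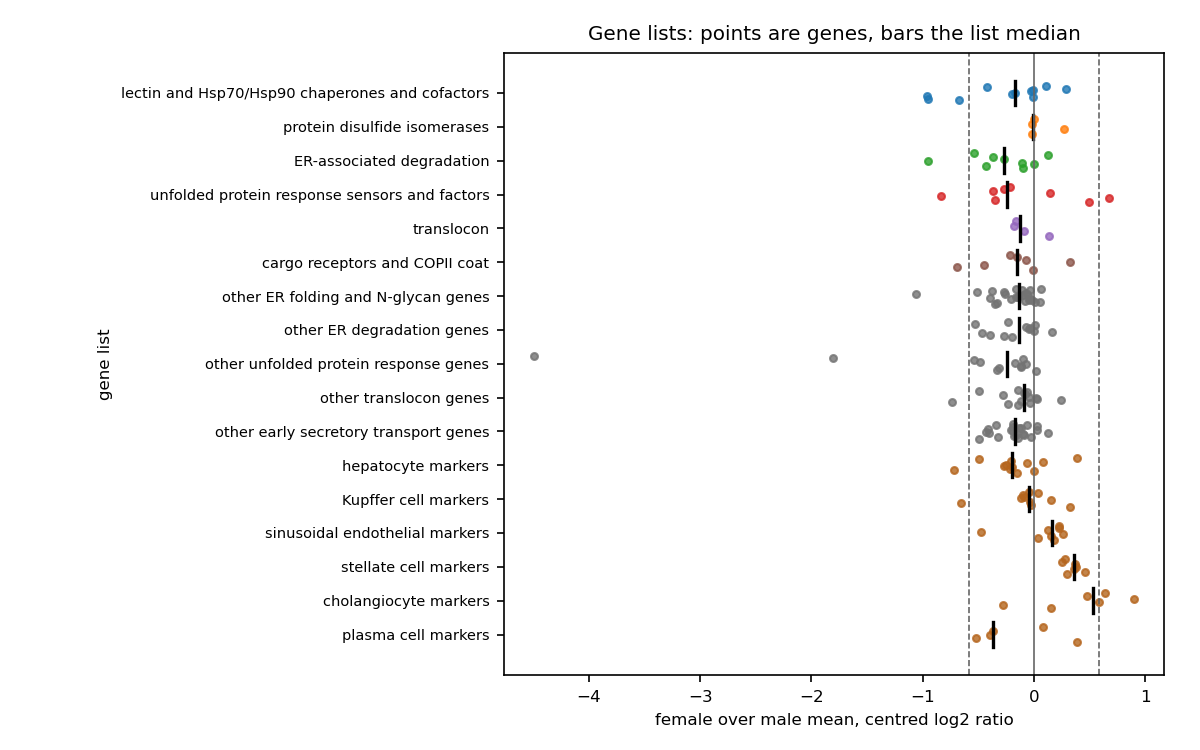
Centred log2 ratio of the female to the male mean (x axis) for every gene of each list (y axis), with the members by role in colour, other pathway genes in grey and cell type markers in brown. Black bars are list medians, the solid line is 0 and dashed lines mark 1.5-fold. The medians of the pathway lists lie left of 0, and those of the stellate and cholangiocyte markers lie to the right.

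The labels of sex held in the tables, since Xist had a mean of 14.0 in males and 7.25e+04 in females, and Ddx3y, Kdm5d, Uty and Eif2s3y had means of 964 to 3147 in males and are not listed in the female table. These genes were chosen after the values were seen. The size factors of the male libraries, a guide to their depth, could be read from the lowest means, because 1 read in 1 of the 6 libraries gives a fixed step. All 7092 male means above 0 and below 1 were whole reads over 6 such steps (within 1e-08). The resulting size factors ran from 0.598 to 1.27, so that the highest was 2.13-fold above the lowest. Multiplied by the summed male means, they gave estimated totals of 1.81e+07 to 3.86e+07 reads counted to genes. These totals assume the same normalized total in every library. Which mouse each size factor belongs to is not known, and the female table, whose lowest mean was 6.61, did not allow the same reading.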

How the data were processed

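Liver RNA depleted of rRNA was sequenced in paired ends. Per the labels and the methods of the study, STAR 2.7 aligned the reads to GRCm39, HTSeq counted those with a unique position on the reverse strand per Ensembl gene, and DESeq2 was then applied to males and females apart. Here the only values taken are the deposited signal values, 1 per gene and table, which the authors made by dividing counts by size factors and averaging over 6 libraries. The other columns hold the authors' comparison of Midn-T with WT (fold changes, errors, statistics and p-values) and were not used. The ATAC-seq lists hold peaks from the authors' own comparison and were not used, and the titles of some ATAC-seq samples contradict their genotype or sex entries.

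Here the 2 means per gene were joined by identifier for 18149 genes. Levels were divided by the union of annotated exons of GENCODE M39, which holds 56323 of the 56884 male genes and 18045 female genes. All exons of any transcript count towards this length, so a gene with retained introns gets a low level. Overlaps were taken from the same annotation, which is not the release the authors used. Reads shared with same-strand neighbours are uncertain, as for Surf4 (356 bases of Surf1) and Hsp90b1 (short overlaps with 2 predicted genes). Female over male ratios used a mean of at least 10 in both tables, were centred on their median and counted past 1.5-fold. The ratio and motif steps were tested on simulated data. Motifs were searched without mismatch on both strands of RefSeq windows (GRCm38.p6). Protein ends were not analysed here. Alternatives changed the length, the minimum, the centring, the fold and the strand searched. Python 3.11.15, numpy 2.4.6, pandas 2.3.3 and matplotlib 3.10.9 were used.

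All 43 members were named, and of the other pathway lists the highest gene by per-kilobase level, except for 1 list, where it is not reported here. The members and lists were chosen with earlier results of these data known.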

Additional observations from a re-analysis of the deposited data

How the results depend on the processing

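The count of members more than 1.5-fold lower in females was 6 with no centring (3.67% of all genes) and with equal sums (3.92%). It was also 6 with equal sums without the 100 genes of highest mean (3.74%) and with no minimum (4.74%). With a mean of at least 100, where 41 members were left, it was again 6 (2.94%). It was 4 when centred on the hepatocyte markers (2.4% of all genes), 13 past a log2 ratio of 0.32 (12.7% of all genes) and 0 at 2-fold (1.5% of all genes). The count higher in females was 1 in each of the first 5 of these (8.7%, 8.05%, 8.49%, 9.9% and 4.39% of all genes, in that order). It was 2 when centred on the hepatocyte markers, where Chac1 joined Trib3 (15.1% of all genes). Past a log2 ratio of 0.32 it was 2 (18.4% of all genes), and at 2-fold it was 0 (1.99% of all genes). Centring on the hepatocyte markers moved the median of all genes to 0.20 and that of the members from -0.16 to 0.0447. The members' median log2 ratio was -0.107 with no centring, -0.129 with equal sums, -0.113 without the 100 highest genes, -0.181 with no minimum and -0.120 with a mean of at least 100. Per kilobase of the longest transcript, the median level was 733.4 in males and 701.7 in females, at percentiles 90.8 and 90.5. Among all listed genes above 0 the percentiles were 95.7 of 30022 genes in males and 91.8 of 18045 genes in females. These 2 sets are unlike, as the lowest mean listed for females was 6.61. On the gene's own strand, ERSE was found in 6 members and the ATF4 element in 0. Protein ends were not run, as no protein sequences were used. No paired analysis was possible because the tables hold no column for a single sample, and no replicate could be left out for the same reason. The spread between mice limits every ratio and is unknown.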

Other observations

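Among the other UPR genes, 2 targets of the ATF4 arm had far larger differences between the sexes than any member, and they are named here after their values were seen. Asns, which encodes asparagine synthetase, had a mean normalized count of 240 in males and 11.0 in females, or 22.5-fold higher in males. Atf3, a stress-induced transcription factor, had 362 and 107, or 3.50-fold. Trib3 and Chac1, members regulated by the same factor, had their higher mean in females. Each value pools the genotypes, so whether all mice of a sex share these differences was not tested.

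Fkbp11, a peptidyl-prolyl isomerase of the ER membrane, had a mean of 246 in males and 122 in females (2.08-fold), and Srprb, a subunit of the signal recognition particle receptor, 635 and 394 (1.67-fold). A pseudogene copy of Calr had a mean of 0.782 in males, against 17993 for Calr.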
